A study of Homo sapiens with 9 samples.

Results

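Huh-7 is an established line of human hepatocellular carcinoma cells, and its wild type (WT) form was the unedited parent in a study of 2 vault RNA knockouts. The RNA of Huh-7 WT cells was described on its own from 3 libraries, out of 9 libraries in the series, with no comparison against a knockout. The WT cells had been given to the authors by another laboratory, were grown in DMEM F12 with fetal bovine serum to 80% confluency, and carried no edit of the VTRNA1-1 or VTRNA1-2 gene. Total RNA was turned into stranded libraries of polyadenylated RNA and sequenced in pairs of 50-base reads. The labels do not say whether the 3 extractions came from separate cultures, so the spread given here and its p-values measure only the differences between these libraries, which may be technical.

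Hepatocytes make most proteins of blood plasma, clear drugs and ammonia, build bile acids from cholesterol and store or release glucose. This programme is set by a small circle of liver transcription factors, among them HNF4A, the FOXA proteins and CEBPA. Liver tumour cells often keep a part of it, lose other parts and take up genes of the foetal liver, of which alpha-fetoprotein (AFP) is the best known.

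The 3 libraries held 40760513, 38441433 and 32384469 counts, and 60664 genes were listed, of which 29327 had at least 1 count. Levels are given as CPM, which are counts scaled to the size of the library after adjustment by the trimmed mean of M values (TMM), as mean ± SD with n = 3 libraries, or as the values of WT replicates 1, 2 and 3 in this order. Different genes are compared per length, as TPM, which are counts divided by the length of all annotated exons of the gene and scaled to the same sum in each library. A gene with 3 counts or fewer in every library was treated as at the floor and is called silent, which corresponds to 0.0738 to 0.0924 CPM. The floor covers counting error only, and a silent gene may still be transcribed below it. Of all genes, 40394 were at the floor, 7373 lay above it with a mean under 1 CPM, and 12897 reached a mean of 1 CPM. Of these 12897 genes, 11577 were protein-coding, 536 were long noncoding RNA genes and 498 were processed pseudogenes.

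Among 19942 protein-coding genes, 58.1% reached 1 CPM, 11.4% reached 100 CPM and 28.6% were silent, and these shares are the background against which each group of liver genes is read below. The groups were lists written from general knowledge of the liver, but with earlier results of these data known. The marker list is therefore no independent check of the labelled cell type. Of its 15 hepatocyte markers, 14 stood at 1 CPM or more and 11 at 100 CPM or more. Besides genes described below, the keratin KRT18 stood at 1598 ± 138 CPM, the asialoglycoprotein receptor genes ASGR1 and ASGR2 at 92.9 ± 2.74 and 216 ± 3.03 CPM, and TAT, which opens tyrosine breakdown, at 4.27 ± 0.355 CPM. The exception was CYP3A4, the main drug-oxidising cytochrome of adult liver, with 9, 2 and 3 counts.

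The DNA before 5 liver genes is shown because the results turn on which of them were on and which were off. ALB and AFP lie next to each other on the plus strand of chromosome 4 and were both among the plasma protein genes with the highest levels, APOA2 encodes a protein of high-density lipoprotein, and CRP and F9 had no count in any WT library. The bases come from RefSeq promoters on GRCh38.p14, read 5′ to 3′ toward the annotated start, and bases covered by an annotated exon were left out. Capitals mark the letters TATAAA, a form of the TATA box, searched on both strands.
ALB, chr4:73404137-73404254, plus strand: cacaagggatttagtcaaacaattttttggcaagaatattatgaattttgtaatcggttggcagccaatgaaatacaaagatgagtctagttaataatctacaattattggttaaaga
AFP, chr4:73436071-73436220, plus strand: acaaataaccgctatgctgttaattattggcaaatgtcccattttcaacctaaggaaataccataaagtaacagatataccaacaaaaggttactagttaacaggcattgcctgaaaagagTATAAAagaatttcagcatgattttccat
APOA2, chr1:161223632-161223778, minus strand: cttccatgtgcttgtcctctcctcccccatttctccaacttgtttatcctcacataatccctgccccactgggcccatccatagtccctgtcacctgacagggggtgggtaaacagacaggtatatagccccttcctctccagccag
CRP, chr1:159714590-159714739, minus strand: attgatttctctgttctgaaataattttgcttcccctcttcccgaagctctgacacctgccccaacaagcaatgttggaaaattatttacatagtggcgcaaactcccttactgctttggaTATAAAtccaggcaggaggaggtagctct
F9, chrX:139530589-139530738, plus strand: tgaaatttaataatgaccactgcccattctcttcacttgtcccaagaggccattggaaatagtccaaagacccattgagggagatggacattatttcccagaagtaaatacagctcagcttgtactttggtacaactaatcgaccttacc

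The TATAAA letters began at position -29 before the start in both AFP and CRP, and were not in the stretches before APOA2 and F9. Only these exact letters were searched. Variants of the box, such as the letters tatatag in the APOA2 stretch, were not counted. The ALB stretch did not hold them either, but it ends 32 bases before the annotated start and so does not cover that position. In the 250 bases before the start, 10.7% of all 35116 promoters held these letters. Among protein-coding genes at 1 CPM or more the share was 5.99%, and among silent ones it was 16.2%. Plasma protein genes at 1 CPM or more held them in 10 of 78 promoters, which is 12.8%, and those under 1 CPM in 3 of 23. These counts describe letters in a window and were not tested, since promoters of a gene overlap.

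By CPM, which does not correct for length, the RNAs with most counts came from general cell machinery, from mitochondrial DNA and from secreted liver proteins. EEF1A1, the elongation factor that brings aminoacyl-tRNA to the ribosome, ranked first in every library with 6896, 6794 and 6689 CPM. FN1, which encodes the matrix protein fibronectin, followed with 5611, 5369 and 5408 CPM, and APOB, the scaffold of very low density lipoprotein, with 5290, 5622 and 5066 CPM. The lowest EEF1A1 library was above the highest FN1 library, whereas FN1 and APOB overlapped and had no fixed order.

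After these 3 genes came MT-CO2, MT-CO1 and MT-CO3, which encode the core of cytochrome c oxidase, at 5048 ± 659, 4781 ± 701 and 4489 ± 387 CPM. FTL, the ferritin light chain that stores iron, stood at 4208 ± 175 CPM, beta-actin (ACTB) at 3916 ± 324 CPM and the simple-epithelial keratin KRT8 at 3552 ± 53.4 CPM. The other members of the first 25 were MT-ND4, GAPDH, MT-ND5, HSP90AA1, NPM1, HSPA8, ACTG1, ENO1, FGB, FLNA, ALB, PKM, HSP90AB1, HNRNPA2B1, MT-RNR2 and EEF2. Their means ran from 3407 CPM for MT-ND4 down to 2276 CPM for EEF2. Along this order only EEF1A1, ACTB and NPM1 had all 3 libraries above all 3 of the gene ranked next, and every other pair of neighbours overlapped.

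**Figure D1:**
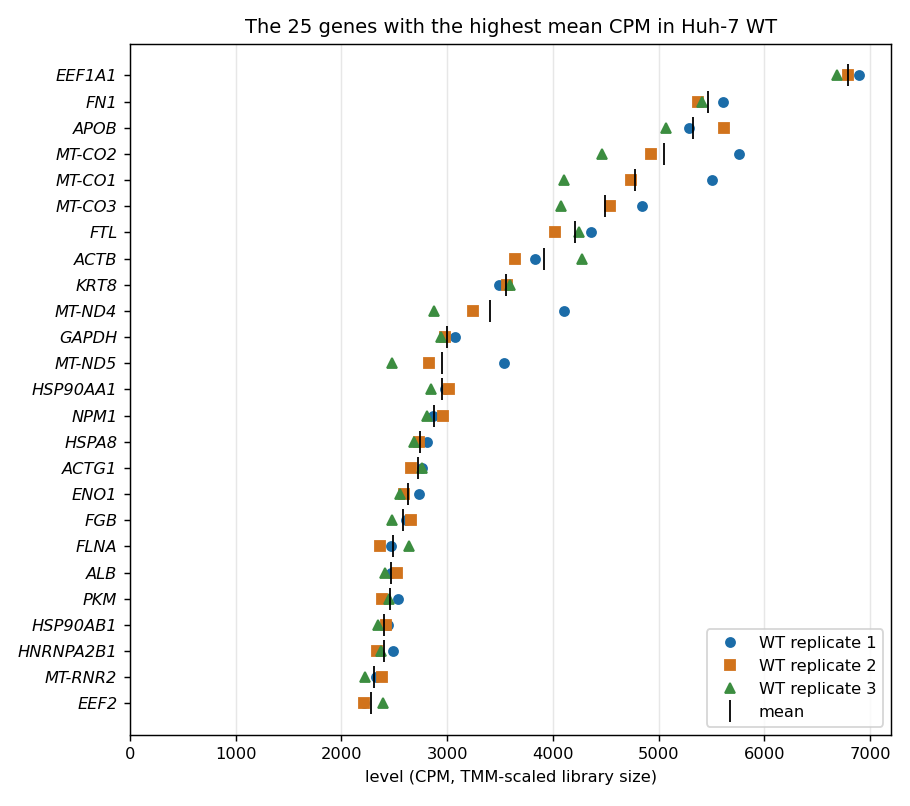
The 25 genes with the highest mean level in Huh-7 WT, with CPM on a linear axis, 1 marker for each WT library and a bar for the mean. EEF1A1 stands alone at 6793 CPM, and the points of the mitochondrial genes MT-CO2, MT-CO1, MT-ND4 and MT-ND5 lie farther apart than those of most neighbours, with replicate 1 highest.

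Per length the order changed, because short RNAs gain. By TPM EEF1A1 ranked 30, FN1 79 and APOB 58. With the length of the canonical transcript these genes ranked 18, 94 and 161. The 10 genes with the highest TPM were MT-CO2, MT-CO3, FTL, MT-ATP8, MT-CO1, MT-ND4L, MT-ND4, MT-ATP6, MT-CYB and RPS12, from 28583 ± 3392 TPM for MT-CO2 to 6701 ± 242 TPM for the ribosomal protein gene RPS12. Of the 25 genes with the highest CPM, 10 were also among the 25 with the highest TPM. Of the first 100 genes by CPM, 18 encoded cytosolic ribosomal proteins, 9 plasma proteins and 8 were mitochondrial. The 10 most abundant genes of a library together took 4.70 ± 0.235% of its counts, the first 100 took 18.2 ± 0.404%, and 867, 881 and 895 genes were needed to reach 50%.

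Plasma protein genes as a whole were largely on. Of 106 genes in 5 lists that cover carriers, lipoproteins, coagulation, complement and the acute phase, 81 reached 1 CPM, 32 reached 100 CPM and 12 were silent. Their median was 14.6 CPM, and together they held 2.73 ± 0.0571% of all counts. The shares of these lists at 1 CPM or more ran from 53.8% for the acute phase, just under the background, to 95.8% for coagulation.

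Among the 29 carrier and binding protein genes, 22 reached 1 CPM, 10 reached 100 CPM and 2 were silent. ALB, the main carrier of plasma, gave 2473, 2526 and 2407 CPM, and AFP, its foetal relative, gave 1693, 1792 and 1660 CPM. Both were high in all libraries with a narrow spread, and per length ALB was the higher, at 2790 ± 64.6 TPM against 2077 ± 87.0 TPM for AFP. VTN, which encodes the adhesion protein vitronectin, AMBP, the precursor of alpha-1-microglobulin and bikunin, and RBP4, the retinol carrier, stood at 1089 ± 65.7, 1028 ± 45.8 and 385 ± 40.2 CPM. The iron carrier TF stood at 1489 ± 46.5 CPM, the fetuin AHSG at 354 ± 3.46 CPM and the thyroxine carrier TTR at 109 ± 2.04 CPM. At the other end, the haptoglobin gene HP had 5.39 ± 0.253 CPM, the sex hormone carrier SHBG 0.327 ± 0.101 CPM, ITIH4 had 3, 2 and 1 counts, and A1BG had none.

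Of the 20 apolipoprotein and lipoprotein assembly genes, 13 reached 1 CPM, 7 reached 100 CPM and 4 were silent. APOA2 gave 754, 768 and 734 CPM and APOA1, the main protein of high-density lipoprotein, 330, 328 and 318 CPM. Per length APOA2 led the list with 3085 TPM, and APOA1 had 1150 TPM. APOE, a ligand of lipoprotein receptors, stood at 458 ± 26.6 CPM, and MTTP, which loads lipid onto APOB, at 323 ± 7.98 CPM. Lower members were APOC3 with 18.1 ± 0.304 CPM and APOA5 with 0.153 ± 0.00439 CPM. LPA, APOC4 and APOF had no count, and ANGPTL8 had 2, 0 and 2.

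Coagulation was the most complete of these groups, with 23 of 24 genes at 1 CPM or more, 8 at 100 CPM or more and 1 silent gene. The fibrinogen chains were its top members, with 2606, 2656 and 2479 CPM for FGB, 1088, 1091 and 1066 CPM for FGA and 987, 1040 and 949 CPM for FGG. The test of spread described below called all 3 chains, next to 60.5% of all tested genes at 100 CPM or more. Prothrombin (F2) stood at 193 ± 2.52 CPM, the plasmin inhibitor SERPINF2 at 184 ± 1.44 CPM, heparin cofactor SERPIND1 at 165 ± 6.81 CPM, factor V (F5) at 83.8 ± 0.251 CPM and factor X (F10) at 42.4 ± 1.12 CPM. Antithrombin (SERPINC1) was low at 7.09 ± 0.234 CPM, and plasminogen (PLG) lower still at 1.09 ± 0.174 CPM. The silent member was F9, the gene of clotting factor IX on chromosome X from 139530739 to 139563459, with 0 counts in each library.

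The complement list had 17 of 21 genes at 1 CPM or more, 5 at 100 CPM or more and none at the floor. C3, the component on which all complement pathways meet, stood at 494 ± 16.5 CPM. C5, which starts the lytic pore, stood at 285 ± 10.8 CPM, SERPING1, the C1 inhibitor, at 238 ± 7.39 CPM, and MASP1, a protease of the lectin pathway, at 113 ± 1.81 CPM. The lowest were C9, a pore-forming component, with 0.117 ± 0.0797 CPM, and C8G, C4A and C4B, each under 1 CPM. C4A and C4B are near-identical copies that reads cannot always separate.

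Acute phase genes, which hepatocytes raise in inflammation, were the least complete of the plasma groups, with 7 of 13 at 1 CPM or more, 2 at 100 CPM or more and 5 silent. SERPINA1, the gene of alpha-1-antitrypsin, gave 825, 807 and 829 CPM, and ORM1, the gene of an orosomucoid, 160, 157 and 151 CPM, with the caveat that ORM1 and its copy ORM2 share sequence. FGL1, a fibrinogen-like protein, stood at 75.3 ± 6.10 CPM, ORM2 at 28.6 ± 0.536 CPM and SAA4 at 4.35 ± 0.344 CPM. HAMP, which encodes the iron hormone hepcidin, stood at 2.13 ± 0.216 CPM. CRP, on chromosome 1 from 159712289 to 159714589, had 0 counts in each library. SAA1 and LCN2 had 1, 0 and 0 counts, LBP had 1, 2 and 1, and SERPINA3 had 1, 2 and 2.

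Transcription factors of the hepatocyte were almost all present. Of 25 such genes 24 reached 1 CPM, 5 reached 100 CPM and none was silent, with a median of 37.7 CPM. HNF4A, the nuclear receptor at the head of this circuit, gave 262, 247 and 258 CPM, and CEBPA, which drives metabolic genes, 99.6, 99.4 and 111 CPM. FOXA3 gave 47.6, 48.5 and 56.0 CPM, FOXA2 39.7, 37.7 and 42.2 CPM, and FOXA1 25.8, 25.8 and 28.9 CPM. For the FOXA genes the highest value was that of replicate 3. XBP1, which expands the secretory pathway, stood at 360 ± 7.58 CPM, the developmental factor PROX1 at 227 ± 6.71 CPM, HHEX at 83.2 ± 3.01 CPM and ONECUT2 at 139 ± 6.60 CPM. CEBPB and CEBPD, related factors of the acute phase, were at 4.99 ± 0.533 and 0.814 ± 0.230 CPM.

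Nuclear receptors, which read bile acids, steroids, lipids and drugs, had 20 of 25 members at 1 CPM or more, 1 at 100 CPM or more and 3 silent. The glucocorticoid receptor NR3C1 stood at 103.9 ± 2.38 CPM. RXRA, a partner of several but not all of these receptors, stood at 97.0 ± 5.65 CPM. PPARG stood at 72.3 ± 1.12 CPM and the bile acid receptor NR1H4 at 61.2 ± 2.64 CPM. RXRB, NR2F6 and ESRRA lay between 35.9 and 45.8 CPM. The drug sensors were much nearer the floor, with 1.59 ± 0.310 CPM for NR1I2 (PXR) and 3.46 ± 0.340 CPM for NR1I3 (CAR). Among the silent members was RXRG, with no count in any library.

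Genes of drug metabolism were unevenly expressed. Of 22 cytochrome P450 genes of families 1 to 3, 7 reached 1 CPM, which is 31.8%, 11 lay between the floor and 1 CPM and 4 were silent, with a median of 0.153 CPM. CYP1A1, which oxidises aromatic hydrocarbons, gave 115, 110 and 106 CPM and was the only member over 100 CPM. CYP2R1, a vitamin D hydroxylase, had 10.4 ± 0.670 CPM, CYP3A5 had 8.16 ± 1.20 CPM, CYP2B6 had 7.28 ± 0.365 CPM and CYP2J2 had 6.25 ± 0.493 CPM. CYP2E1, which oxidises ethanol, had 0.155 ± 0.0309 CPM, CYP2C8 had 0.151 ± 0.0717 CPM and CYP3A4 had 0.221, 0.0520 and 0.0924 CPM. The silent members were CYP1A2, CYP2A13, CYP2U1 and CYP2W1, with at most 3 counts in a library.

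Conjugating and other drug enzymes had 24 of 39 members at 1 CPM or more, 4 at 100 CPM or more and 8 silent. At 61.5% and 10.3%, the first 2 shares were near the background of 58.1% and 11.4%. GSTP1, a glutathione transferase of most tissues other than mature hepatocytes, gave 1070, 1072 and 1094 CPM, and the retinal dehydrogenase ALDH1A1 792, 813 and 791 CPM. ADH5, an alcohol dehydrogenase found in most cells, stood at 238 ± 6.25 CPM and POR, the electron donor of the P450 enzymes, at 128 ± 4.51 CPM. The glucuronidating UGT2B4 stood at 70.9 ± 2.82 CPM. The ethanol-oxidising ADH1B had 2, 3 and 1 counts, ADH1C had 0, 1 and 0, ADH4 had 2, 0 and 2 and SULT2B1 had 1, 1 and 0, while UGT1A4, UGT1A9 and UGT2B17 had none. UGT1A genes share exons, so counts of single members are uncertain.

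Of 25 bile acid genes, 16 reached 1 CPM, 3 reached 100 CPM and 3 were silent. The shares at 1 and 100 CPM, 64% and 12%, were near the background of 58.1% and 11.4%. The parts of the hormone loop that restrains bile acid synthesis were high, with 273, 269 and 333 CPM for the receptor FGFR4, 111, 117 and 116 CPM for its partner KLB and 59.5, 59.7 and 60.1 CPM for the hormone FGF19, which in the body comes mainly from the ileum. FGFR4 was highest in replicate 3, and FGF19 was nearly the same in all libraries. ABCC2, which exports bilirubin conjugates, stood at 177 ± 6.79 CPM and ABCC4, an exporter of the basolateral side, at 70.0 ± 2.96 CPM. CYP7A1, the rate-limiting enzyme of the classical synthesis route, had no count, and CYP8B1, which makes cholic acid, had 2, 0 and 1. The bile acid importer SLC10A1 had 3, 1 and 2 counts, the importer SLCO1B1 had 0.843 ± 0.145 CPM and the canalicular exporter ABCB11 had 0.792 ± 0.168 CPM.

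In the urea cycle and amino acid list, 24 of 30 genes reached 1 CPM, 7 reached 100 CPM and 1 was silent. HGD, an enzyme of tyrosine breakdown, gave 290, 297 and 274 CPM, and the glycine decarboxylase GLDC 242, 229 and 237 CPM. The glutamine synthetase GLUL stood at 282 ± 7.71 CPM, the methionine adenosyltransferase MAT2A at 238 ± 6.40 CPM and the citrin gene SLC25A13 at 123 ± 3.33 CPM. The urea cycle itself was uneven between its steps. ASL stood at 77.7 ± 4.03 CPM and ASS1 at 10.7 ± 1.17 CPM, whereas ARG1 had 6.47 ± 0.338 CPM, the entry enzyme CPS1 had 3.81 ± 0.250 CPM and OTC had 8, 15 and 4 counts, or 0.237 ± 0.138 CPM. GLS2 was silent with 1, 2 and 0 counts.

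**Figure D2:**
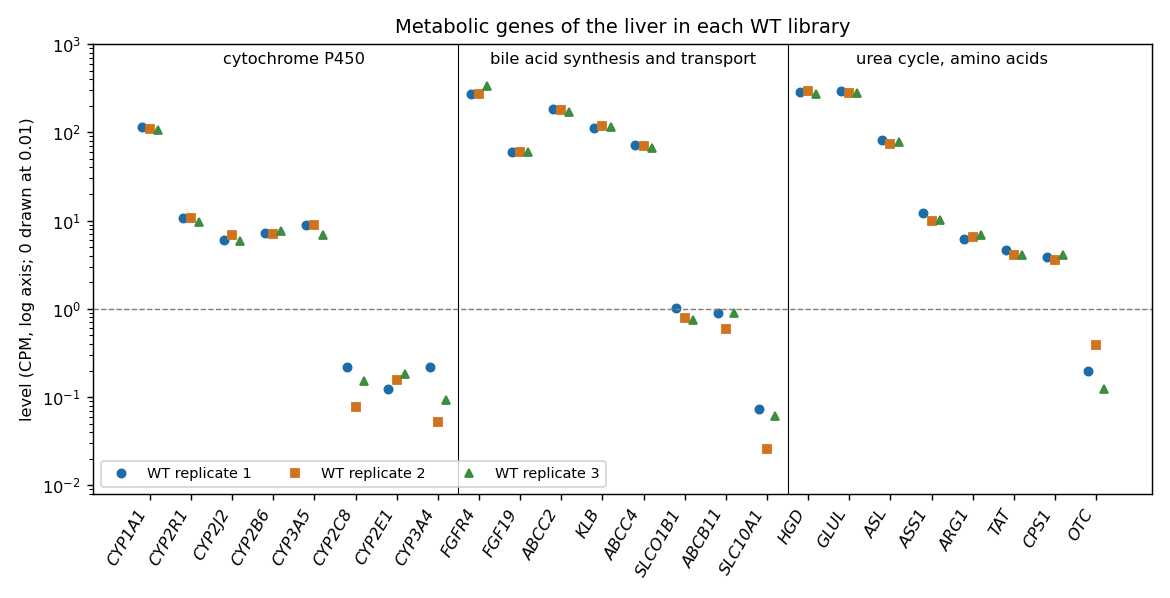
CPM of each WT library on a log axis for 8 genes of each of 3 metabolic lists, chosen to span the range of the list, with a dashed line at 1 CPM. The 3 libraries lie close together above 1 CPM and scatter below it, where CYP3A4 has 2 to 9 counts and SLC10A1 has 1 to 3.

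Genes of lipid synthesis were the most complete metabolic group. All 24 genes of cholesterol synthesis and uptake reached 1 CPM and 13 reached 100 CPM, with a median of 119 CPM. HMGCS1, an early enzyme of the pathway, gave 766, 769 and 757 CPM. EBP, ACAT2 and FDPS, which act at other steps of it, stood at 133 ± 2.41, 186 ± 3.28 and 225 ± 6.99 CPM. The lowest member, HSD17B7, still had 4.19 ± 0.657 CPM. Of 26 fatty acid genes 24 reached 1 CPM and 9 reached 100 CPM, among them the desaturase SCD with 925 ± 28.9 CPM, ATP citrate lyase (ACLY) with 530 ± 14.8 CPM and fatty acid synthase (FASN) with 461 ± 46.6 CPM. ME1, a source of NADPH, stood at 309 ± 8.76 CPM and HADHA, of mitochondrial beta-oxidation, at 203 ± 2.02 CPM. BDH1, which interconverts ketone bodies, was at 0.388 ± 0.113 CPM.

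Of 39 genes of glycolysis and gluconeogenesis, 27 reached 1 CPM, 11 reached 100 CPM and 3 were silent. GAPDH stood at 2996 ± 67.8 CPM, ENO1 at 2625 ± 93.7 CPM, PKM at 2459 ± 73.5 CPM, LDHA at 1124 ± 11.1 CPM and TPI1 at 697 ± 11.7 CPM. LDHB, the partner of LDHA in lactate dehydrogenase, had 0.710 ± 0.121 CPM. Genes of glucose release were low, with 0.380 ± 0.0562 CPM for FBP1 and 6, 0 and 3 counts for G6PC1. PCK1, the cytosolic enzyme that commits carbon to glucose, had 3, 0 and 1 counts, and GYS2, the glycogen synthase of liver, had 0, 0 and 1.

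The balance of enzyme forms was read from 18 pairs of related genes, each made of the form that dominates in mature liver and a form of foetal or other tissues, as TPM in each library. The liver form was the lower one in all 3 libraries for 14 pairs and the higher one in all 3 for 4 pairs, and the same count came with the lengths of the longest or the canonical transcript. Of these pairs 15 are shown, 11 with the lower and 4 with the higher liver form. No p-value is given, since an exact paired test with 3 libraries cannot fall below 0.25.

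PKM, the pyruvate kinase of proliferating tissues, was at 1112 ± 25.1 TPM against 0.677 ± 0.107 TPM for the liver gene PKLR, 1642-fold higher over the exon union, 4490-fold with the longest and 5876-fold with the canonical transcript. GSTP1 was 1234-fold above GSTA1, and 2838-fold with the canonical transcript. IGF2 was 220-fold above IGF1 and MAT2A 115-fold above MAT1A. Smaller gaps were 5.53-fold for the glucose carrier SLC2A1 over SLC2A2, which was 10.1-fold with either transcript length, 5.89-fold for the glycogen phosphorylase PYGB over PYGL, which was 3.93-fold with either, and 2.56-fold for the arginase ARG2 over ARG1. G6PC3 was 286-fold above G6PC1, though G6PC1 had at most 6 counts in a library. That fold was 676 with the longest transcript, 1320 with the canonical one and 489 without replicate 1. The order of these pairs therefore did not turn with the length used, while the size of several folds did depend on it.

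For 2 further pairs shown the liver form was at the floor with 1 or more counts. PCK2 had 661, 613 and 542 counts against 3, 0 and 1 for PCK1, and GYS1 had 1802, 1559 and 1464 against 0, 0 and 1 for GYS2. CYP3A7 and CYP3A4 were both too low for a firm order, with 12, 16 and 6 counts for the foetal form and 9, 2 and 3 for the adult form.

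The 4 pairs in which the liver form was the higher were ALB over AFP, by 1.34-fold, the phosphofructokinase PFKL over PFKP, by 91.2-fold (56.9-fold with the longest transcript), CPT1A over CPT1B, which bring fatty acids into mitochondria, by 57.0-fold, and FBP1 over FBP2, by 4.65-fold. The last rests on few counts, 13, 15 and 14 for FBP1 and 6, 1 and 0 for FBP2, and the fold was 22.2 without replicate 1 and 2.88 without replicate 3. The ALB to AFP ratio was 1.36, 1.31 and 1.35 in the 3 libraries.

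**Figure D3:**
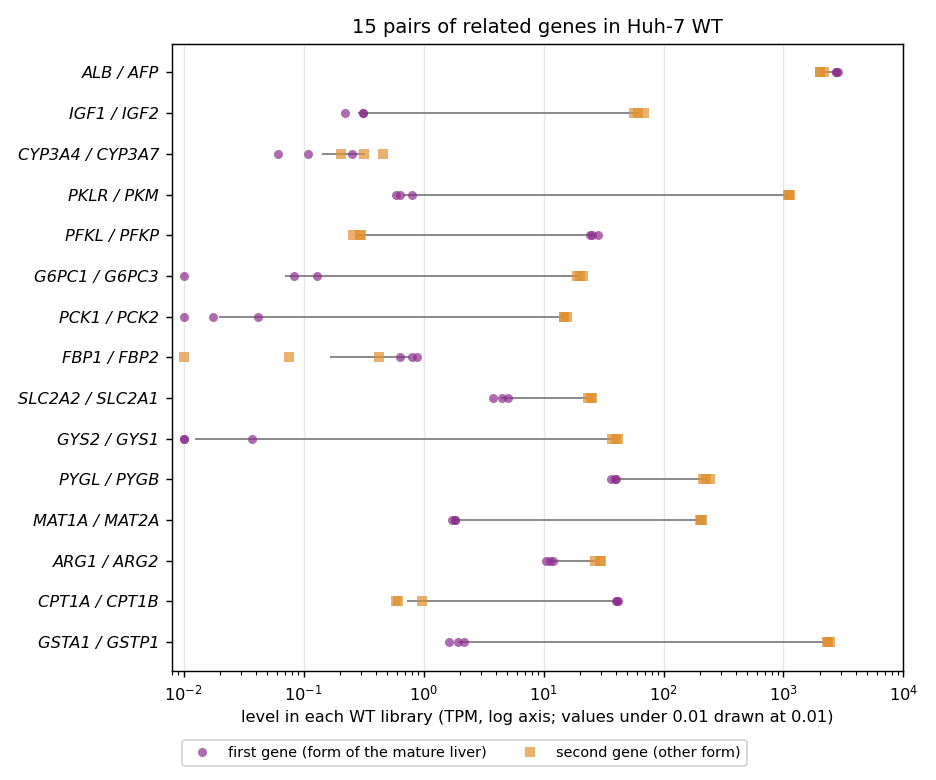
TPM of both genes of 15 pairs on a log axis, with circles for the form of mature liver, squares for the other form, 1 marker for each WT library and a line between the means. In 11 pairs the squares lie to the right of the circles in every library, and in 4 pairs (ALB, PFKL, FBP1 and CPT1A) the circles lie to the right.

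Oncofetal and hepatoma genes were mostly on, with 28 of 32 at 1 CPM or more, 15 at 100 CPM or more and 3 silent. Next to AFP stood PEG10, an imprinted gene derived from a retrotransposon, with 979, 990 and 983 CPM, and GPC3, a cell-surface proteoglycan of foetal liver, with 646, 651 and 695 CPM. LIN28B, which blocks let-7 maturation, gave 490, 511 and 485 CPM and IGF2BP1, an RNA-binding protein of the embryo, 570, 556 and 563 CPM. The chromatin protein HMGA2, a let-7 target, stood at 405 ± 10.6 CPM, the surface protein CD24 at 511 ± 13.3 CPM, the growth factor IGF2 at 115 ± 10.8 CPM, the trypsin inhibitor SPINK1 at 203 ± 14.5 CPM and the calcium-binding S100P at 116 ± 1.07 CPM. The growth factor MDK had the widest spread of those over 100 CPM, with 176, 196 and 265 CPM.

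Some related genes of this group were silent or nearly so. LIN28A, the paralogue of LIN28B, had 0.120 ± 0.0664 CPM. H19, the noncoding neighbour of IGF2, had 1, 3 and 0 counts, and DLK1 and THY1 had none. The telomerase gene TERT stood at 5.43 ± 0.837 CPM and SALL4 at 2.52 ± 0.692 CPM.

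Cancer-testis genes, which are normally limited to germ cells and are switched on in many tumours, were mostly off, with 14 of 20 silent and 4 at 1 CPM or more. BRDT, a bromodomain protein of the testis, was the exception in level, with 72.9, 75.8 and 70.2 CPM. PRAME stood at 8.63 ± 0.407 CPM, MAGEB2 at 6.22 ± 0.748 CPM and MAGEC2 at 4.58 ± 0.419 CPM. MAGEB1 had 0.483 ± 0.124 CPM. CTAG1B, CTAG2, GAGE1 and MAGEA1 had no count, and MAGEA10 had 1, 1 and 2. CTAG1B and GAGE1 have near-identical copies that reads cannot always separate, so their lack of counts is uncertain.

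Of 36 proliferation genes 35 reached 1 CPM and 20 reached 100 CPM, with a median of 133 CPM. TOP2A, which untangles replicated DNA, gave 1144, 1156 and 1074 CPM, the replicative helicase subunits MCM7 and MCM3 897, 844 and 880 CPM and 499, 480 and 479 CPM, the mitotic cyclin CCNB1 346, 357 and 334 CPM, and PCNA, the sliding clamp of DNA polymerase, 314, 327 and 319 CPM. CCND1 stood at 308 ± 21.2 CPM, whereas CCND2, another D-type cyclin, had 0 counts in each library. The cell cycle inhibitors CDKN1A and CDKN2A were at 10.0 ± 1.20 and 8.36 ± 2.19 CPM.

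Of 14 named long noncoding RNAs, 11 reached 1 CPM, 3 reached 100 CPM and 3 were silent. Among all 16780 long noncoding RNA genes, 3.19% reached 1 CPM and 81.4% were silent, and the list holds well-known members only. SNHG1 and GAS5, which host small nucleolar RNAs, gave 218, 213 and 201 CPM and 161, 163 and 147 CPM. The nuclear RNAs NEAT1 and MALAT1 differed more between libraries, with 205, 159 and 148 CPM and 51.6, 40.3 and 31.4 CPM. Both were highest in replicate 1 and lowest in replicate 3, as was the share of mitochondrial mRNA described below. DANCR, another host of small nucleolar RNA, gave 64.1, 76.0 and 72.1 CPM. HULC, named for its rise in liver cancer, had 1.28 ± 0.276 CPM, and MEG3 and HOTTIP had no count.

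Markers of other cell types differed by list. Against the 58.1% of protein-coding genes at 1 CPM or more, the share was 0% for erythroid, 21.4% for leukocyte, 25% for endothelial and 30% for intestinal markers, but 66.7% for cholangiocyte and 75% for stellate cell and fibroblast markers. In bulk RNA a few cells with much RNA and many cells with little cannot be told apart. All 8 erythroid markers were silent, with HBA1, HBA2, HBB, HBG1, HBG2 and AHSP at 0 and a single count of ALAS2 in all. HBA1 and HBA2, like HBG1 and HBG2, are near-identical copies that reads cannot always separate, so their lack of counts is uncertain. Of 12 endothelial markers 7 were silent, with KDR, EMCN and CLEC4G at 0, a single count each of TEK, ERG and ROBO4 and 2, 2 and 1 counts of CDH5. STAB2 had 0.269 ± 0.00852 CPM and VWF 0.0696 ± 0.0368 CPM, and 3 markers reached 1 CPM, which were EGFL7 with 23.5 ± 4.67 CPM, PECAM1 with 7.38 ± 0.331 CPM and LYVE1 with 4.41 ± 0.0901 CPM. Their summed level ran from 31.9 to 40.3 CPM.

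Of 14 macrophage and leukocyte markers 8 were silent, with C1QA, C1QB, NKG7 and MS4A1 at 0, and their sum was between 131 and 133 CPM. Nearly all of that sum was LYZ, the lysozyme gene, with 111, 111 and 110 CPM, and CD3D, a chain of the T cell receptor complex, with 18.1, 19.3 and 18.5 CPM. CD3E, its neighbour in that complex, had 2, 1 and 0 counts, and PTPRC, carried by all leukocytes, had 6, 8 and 3. CD14, MARCO and CD74 stood at 1.31 ± 0.0386, 0.421 ± 0.0524 and 0.371 ± 0.105 CPM, CD68 had 3, 2 and 1 counts, and CD163 had 1, 1 and 0.

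The list of 12 stellate cell and fibroblast markers had 9 genes at 1 CPM or more and 2 silent ones, with a sum between 542 and 570 CPM. TAGLN, an actin-binding protein, and LUM, a matrix proteoglycan, made up most of it with 353 ± 14.2 and 153 ± 6.30 CPM, while COL1A1 had 11.1 ± 0.403 CPM, THY1 no count and DCN 2, 2 and 3 counts. COL1A2 had 19.1, 19.3 and 18.7 CPM, PDGFRA, RGS5, ACTA2, COL3A1 and PDGFRB lay between 1.73 and 5.82 CPM, and LRAT, which marks vitamin A storage, had 0.0958 ± 0.0457 CPM. Of 12 cholangiocyte markers 8 reached 1 CPM and 1 was silent, with a sum between 861 and 931 CPM. The anion exchanger SLC4A2, which many cells use, gave 360, 351 and 392 CPM and the annexin ANXA4 132, 134 and 128 CPM. The bile duct keratin KRT19 gave 203, 193 and 226 CPM and SOX9 74.7, 74.1 and 82.6 CPM, but KRT7 had 0.368 ± 0.115 CPM and TFF2 no count. SPP1, EPCAM, GGT1 and CFTR lay between 2.04 and 63.6 CPM, and AQP1 and MMP7 had 0.122 and 0.0762 CPM. Among 10 intestinal markers 5 were silent and 3 reached 1 CPM, with a sum between 945 and 1011 CPM, nearly all of it from the actin-bundling villin gene VIL1 with 999, 932 and 949 CPM. CDH17 stood at 10.3 ± 0.249 CPM, CDX2 at 1.97 ± 0.351 CPM, LGALS4 at 0.319 ± 0.0464 CPM and GUCY2C at 0.115 ± 0.0201 CPM, SI had 3, 3 and 2 counts, LCT had 0, 0 and 2, and CDX1, FABP2 and MUC2 had no count.

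The 3 libraries differed by more than counting error for a part of the genes. A chi-square goodness of fit test of the 3 counts against equal shares of the TMM-scaled library sizes called 3786 of 15730 genes with a mean of at least 10 counts, which is 24.1%, at a Benjamini-Hochberg adjusted p under 0.05. The test compares these libraries and no conditions. Without replicate 3 it called 1681 genes, without replicate 2 it called 2415 and without replicate 1 it called 2603, each with 1 library fewer in the test. Replicate 3 was the library farthest from the other two for 1807 of the 3786 genes, replicate 1 for 1019 and replicate 2 for 960.

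How many genes were called followed their level, since more counts show smaller differences. Under 1 CPM 3.78% were called, from 1 to 10 CPM 10.7%, from 10 to 100 CPM 28.2% and at 100 CPM or more 60.5%. In the same order the median coefficient of variation (CV) fell from 22.4% over 9.61% and 4.20% to 2.82%. With the variance of counting taken out, the median CV was 0%, 3.30%, 3.00% and 2.57%, and so changed little above 1 CPM. The biological coefficient of variation that edgeR estimated over all tested genes was 5.76%, and it was 3.88% without replicate 3, 5.73% without replicate 1 and 7.46% without replicate 2. Of 8928 genes at 10 CPM or more, 103 had a CV over 20%.

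**Figure D4:**
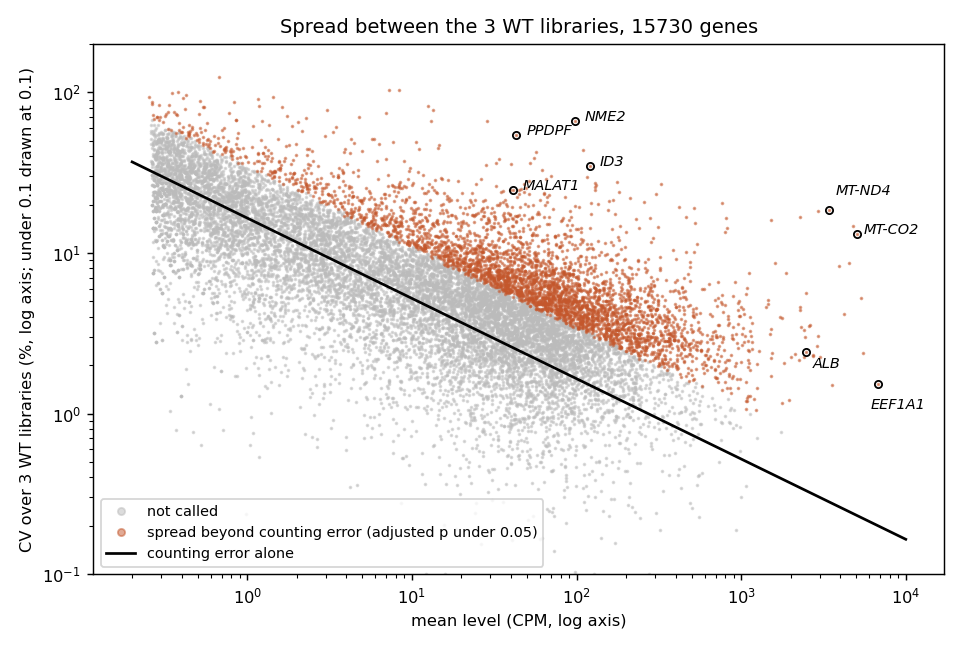
CV over the 3 WT libraries against mean CPM for 15730 genes, both on log axes, with genes called by the chi-square test in colour and a line for counting error alone. Abundant genes such as EEF1A1 and ALB lie above the line at a CV under 3%, whereas NME2 and PPDPF lie at 66.0% and 54.1%.

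Next to 24.1% of all genes tested, the plasma protein genes gave 29 calls among 91 tested, which is 31.9%, and the hepatocyte transcription factors 10 among 25. The oncofetal list gave 15 calls among 28, the proliferation list 19 among 35 and the cholesterol list 12 among 24. These lists hold many genes at high levels, though not all reach 100 CPM, where 60.5% of genes were called. The plasma protein genes took 2.73%, 2.78% and 2.67% of the counts in the 3 libraries. Cytosolic ribosomal protein genes, 68 of 85 of them called, took 5.05%, 5.19% and 5.14%.

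Mitochondrially encoded protein genes, taken as a sum, differed in their share between libraries. All 13 were called, and they took 3.27% of the counts in replicate 1, 2.76% in replicate 2 and 2.49% in replicate 3. MT-ND4, a subunit of respiratory complex I, gave 4102, 3245 and 2874 CPM, and MT-CO2 gave 5760, 4924 and 4460 CPM. MT-ND3, another complex I subunit, gave 460, 470 and 482 CPM, and the mitochondrial ribosomal RNA MT-RNR2 gave 2325, 2381 and 2222 CPM, so that neither shared this order.

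The 10 genes with the largest CV beyond counting error among those at 10 CPM or more were RANBP1P1, GPX1P1, FKBP1C, NME2, RPS2P7, PPDPF, MRPL34, MAP1LC3B2, MZT2B and RPS2P46, and all were highest in replicate 3 and lowest in replicate 1. NME2, a nucleoside diphosphate kinase, gave 41.2, 83.6 and 167 CPM, from 1673, 3212 and 5440 counts. PPDPF gave 27.3, 32.1 and 69.8 CPM. RANBP1P1, GPX1P1, RPS2P7 and RPS2P46 are processed pseudogenes and MAP1LC3B2 and FKBP1C are close copies of other genes, so that reads may be shared with their parent genes, and how such reads were counted is not given in the sources used here. Between replicates 1 and 2 12 of 8924 genes differed by over 1.5-fold, between 2 and 3 26 did, and between 1 and 3 82 did.

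The ratio of 2 libraries also moved with base composition. Across genes the Spearman correlation of the log2 ratio with the GC content of the canonical transcript was 0.671 for replicate 3 over 2, 0.337 for 3 over 1 and -0.339 for 2 over 1, with n = 8924 genes that share the same libraries. For replicate 3 over 2 the median log2 ratio went from -0.08 in the fifth of genes with the lowest GC content to 0.12 in the fifth with the highest. With transcript length the correlations were between -0.251 and -0.150. The part of GC content, length and mitochondrial RNA in the spread of single genes was not tested.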

How the data were processed

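The authors mapped the read pairs with STAR to hg38, annotation version 104, and summed them over genes by featureCounts. The deposited table holds the authors' raw counts, with no normalization and no filter on low values. Whether counting used the strand, and how reads with several matches were treated, is not given in the sources used here. A lack of counts is therefore uncertain for any gene with a near-identical copy. Only the 3 WT libraries were analysed, grouped by their labels, and 6 knockout libraries were not used here. Symbols, lengths and biotypes came from GENCODE 44 on GRCh38. Of 60664 identifiers 201 had no entry, and these held 0.0177% of the counts.

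CPM used TMM-scaled library sizes from edgeR 4.0.16 (R 4.3.3), computed from the WT libraries, with factors between 0.997 and 1.003. TPM used the union of exons. Tables, chi-square tests and figures were made in Python 3.11.15 with numpy 2.4.6, pandas 2.3.3, scipy 1.17.1 and matplotlib 3.10.9. The spread test had 2 degrees of freedom and covered genes with a mean of at least 10 counts. It was tested on simulated data. Intervals from counts cover counting error only.

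The libraries, the 25 gene lists, the pairs and the rule for named genes were chosen with earlier results of these data known. Named were the 25 genes with the highest CPM, the 10 with the highest TPM, the 5 members of each list with the highest TPM, up to 5 silent members, marker genes, pair genes, the 10 most variable genes and members that show a range. Alternatives were other size factors (DESeq2 1.42.0), other lengths, other thresholds, no filter and leaving out each library. Lengths of canonical transcripts were added after seeing the data. APOA1 had no entry among the promoters used. Some genes that the rule selects are not reported here.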

Additional observations from a re-analysis of the deposited data

How the results depend on the processing

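Of the 25 genes with the highest mean CPM, 10 were among the first 25 by TPM over the exon union and 11 by TPM over the canonical transcript, a length chosen after seeing the data. Leaving out 1 library kept 23 to 25 of them. The number of genes with a spread beyond counting error was 3706 with library size alone, 3659 with DESeq2 size factors and 3284 without a filter on low counts, next to 3786. It was between 1681 and 2603 when 1 library was left out, where each test has 1 library fewer, with 1681 without replicate 3 and 2415 without replicate 2. Next to 12897 genes at a mean of 1 CPM or more, 12628 reached 1 CPM in every library. A mean of 0.5 CPM was reached by 14248 genes and a mean of 1 TPM by 14302. Leaving out 1 library gave 12914 to 12938 genes at a mean of 1 CPM or more, and 40758 to 41204 silent genes. Genes with no count in any library numbered 31337. The count of 14 pairs with the lower liver form was the same under every length, although the folds of single pairs moved with the length used. Leaving out a library could not change this count, since every pair had the same order in all libraries. For single genes and pairs, 195 values under an alternative lay within the spread between libraries and 35 moved beyond it. None of these values or of the counts above changed direction. The 195 is no measure of stability, since much of it was fixed beforehand. For mean CPM, leaving out a library could not move a value beyond the spread of all libraries. Library size alone and DESeq2 size factors hardly differed from the main scaling. All 35 moved with another length or without mitochondrially encoded genes in the library size.

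No paired analysis was possible because only 1 group of libraries was analysed. The floor of 3 counts was a chosen limit, and depth sets its value in CPM, 0.0738 to 0.0924. A silent gene is therefore one that was not counted above this limit. The order of genes by TPM can turn with the length used: TF had 222 TPM and TTR 194 over the exon union, but TF had 167 and TTR 398 over the canonical transcript.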
